A study of Mus musculus with 46 samples.

Results

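Acetylation of lysine 27 of histone H3 (H3K27ac) was compared between visceral adipose tissue of mice given corticosterone and of mice given vehicle at 5 weeks. The members are all 39581 genomic sites of the authors' table for this comparison, of 135960 sites in the 6 tables of corticosterone against vehicle in the series. They were joined to the peak lists of the 4 H3K27ac libraries behind the table, of 46 samples in all. The CORT group received corticosterone, the main glucocorticoid of rodents, and stands for active Cushing's syndrome, the disease of glucocorticoid excess. The VEH group is its control. Each group has 2 libraries (replicates 1 and 2), both precipitated with the same antibody and both carrying Drosophila chromatin added as a spike-in. Strain, sex, age and dose are not given in the sources used here, nor whether a library is 1 animal or a pool, so the spread between replicates may be technical in part. Whole fat tissue holds many cell types, and a change in the share of cells of a type cannot be told apart from a change within cells.

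H3K27ac is placed by acetyltransferases such as p300 and CBP, removed by histone deacetylases, and read by bromodomain proteins of the BET family. It marks active promoters, where it lies beside H3K4me3, and active enhancers, where H3K4me3 is low or missing. Broad stretches of the mark lie over strongly transcribed genes and clustered enhancers that help define a cell type. H3K27me3 is the repressive methylation of the same lysine, so a single histone tail cannot carry both. Corticosterone acts through the glucocorticoid receptor, a transcription factor that binds enhancers and recruits both acetyltransferases and repressor complexes.

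The 4 libraries differed more within the CORT group than between the groups. CORT replicate 1 had 41590 peaks over 97.1 Mb, and CORT replicate 2 had 22165 peaks over 41.0 Mb. The VEH libraries had 40227 peaks over 94.6 Mb (replicate 1) and 36284 peaks over 88.3 Mb (replicate 2). CORT replicate 2 therefore stood apart from the other 3 libraries, which resembled each other in number and length. Its peaks were also weaker, with a median score of 199 against 294, 234 and 226 in CORT replicate 1, VEH replicate 1 and VEH replicate 2; the scores are the peak caller's own values as deposited by the authors. Nearly all of its peaks lay inside the others: 98.6% overlapped a peak of CORT replicate 1, while 46.5% of the peaks of CORT replicate 1 overlapped one of CORT replicate 2. The bases shared by both lists made up 0.411 of the bases in either for the CORT pair and 0.735 for the VEH pair. The values across the groups were 0.631 for CORT replicate 1 with each VEH library, and 0.423 and 0.450 for CORT replicate 2.

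**Figure D1:**
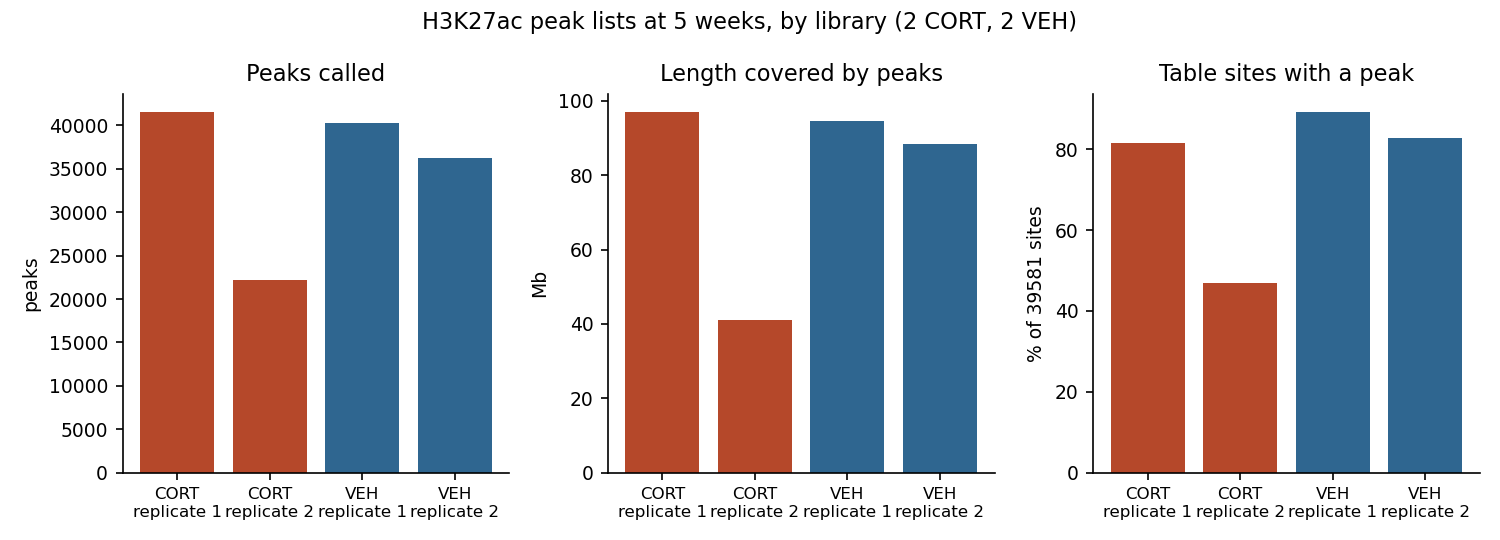
Peaks called, length covered in Mb and share of the table's sites with a peak (%), 1 bar per library, CORT in red and VEH in blue. CORT replicate 2 is the lowest in all panels, with 22165 peaks, 41.0 Mb and 47.0% of sites.

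Sites were 385 to 95518 bases wide, with a median of 2096, and together covered 110.6 Mb. A site's level is the authors' mean normalized read number in a group on a log2 scale, so a difference of 1 is a doubling. The table gives 1 such mean per group and no value per library, so no error of a difference can be computed, and the site values cannot be recomputed without CORT replicate 2. With 2 libraries against 2, an exact two-sided permutation test of a single value cannot go below 0.333. Calls are therefore those of the authors' deposited table, at a false discovery rate (FDR) below 0.05.

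Levels in the table were higher in CORT almost throughout. The median level was 6.74 in CORT and 6.23 in VEH, and the median difference per site was 0.48. The difference ran from 0.02 at the 10% point of the sites to 0.93 at the 90% point, and 90.6% of sites lay above 0. The shift was not seen in another set of values. In the 2 tables that set the same libraries against input chromatin, each normalized separately by the authors, the median enrichment at the 30744 sites found in both was 1.94 in CORT and 2.01 in VEH. The median difference of those enrichments was −0.09, below 0 and not above it. Regions were matched to sites by overlap, and 7690 CORT and 22155 VEH regions had the same bounds as the site. Another 1684 sites had a CORT region only and 7153 a VEH region only. The −0.09 thus does not cover all the sites behind the 0.48. Whether the spike-in entered the levels is not given in the sources used here. Differences are therefore also given centred, meaning after subtraction of the table median of 0.48, which asks which sites moved more or less than the rest.

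The authors' deposited table called 6819 sites higher in CORT (gained, 17.2% of the sites tested) and 53 lower (lost, 0.134%). Gained sites had a median difference of 0.90, and the smallest was 0.52. Lost sites had a median difference of −0.80, from −1.20 to −0.55. Centring changed the sign of no call, since every gained site lay above the table median. Lost sites could not change sign, and the FDRs were not recomputed, so the number of calls without the shift is not known. The balance of the extremes was different from that of the calls: 244 sites lay 1 or more above the table median and 370 lay 1 or more below it. Of these, 142 and 53 were called, so all lost sites were among the centred falls. At an unadjusted p below 0.05 in the authors' deposited table, 14601 sites were higher and 198 lower. Next to the threshold, the last site inside had an FDR of 0.0499 and a difference of 0.71, and the first outside an FDR of 0.05 and a difference of 0.77 in the authors' deposited table.

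The share of sites called was larger at higher levels and widths, while the median difference changed little above the lowest level class. Sites were split by level into 10 equal classes. The median difference was 0.29 in the lowest class and 0.43 to 0.52 in the others. The spread between the 10% and 90% points narrowed upward, from −0.19 and 0.88 in the lowest class to 0.17 and 0.79 in the highest. The share gained was 0 in the lowest class, 18.1% in class 5, 26.3% in class 8 and 24.5% in class 10. All sites below a level of 5.34 carried an FDR of exactly 1 in the authors' deposited table, so none of them could be called, whatever their p. In total 5375 sites had that value, with p-values down to 2.01e-06, and 673 of them had a p below 0.05 in the authors' deposited table. They include 122 of the 370 sites far below the table median and 50 of the 244 far above it.

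Width gave the same picture. The median difference was 0.45 for 2065 sites under 1 kb, 0.47 at 1 to 2 kb, 0.49 at 2 to 5 kb and at 5 to 10 kb, and 0.44 for 766 sites of 10 kb and over. The share gained rose over the same classes from 1.45% through 10.2% and 23.0% to 29.7%, and was 28.1% in the broadest. The share lost was 0 under 1 kb, 0.186% at 2 to 5 kb and 0.783% at 10 kb and over. Broad sites thus held more calls of both signs at nearly the same median difference. Level rose with width, from a median of 4.89 under 1 kb to 9.88 at 10 kb and over. The first of these lies below 5.34, under which no site could be called, and width was not separated from level.

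**Figure D2:**
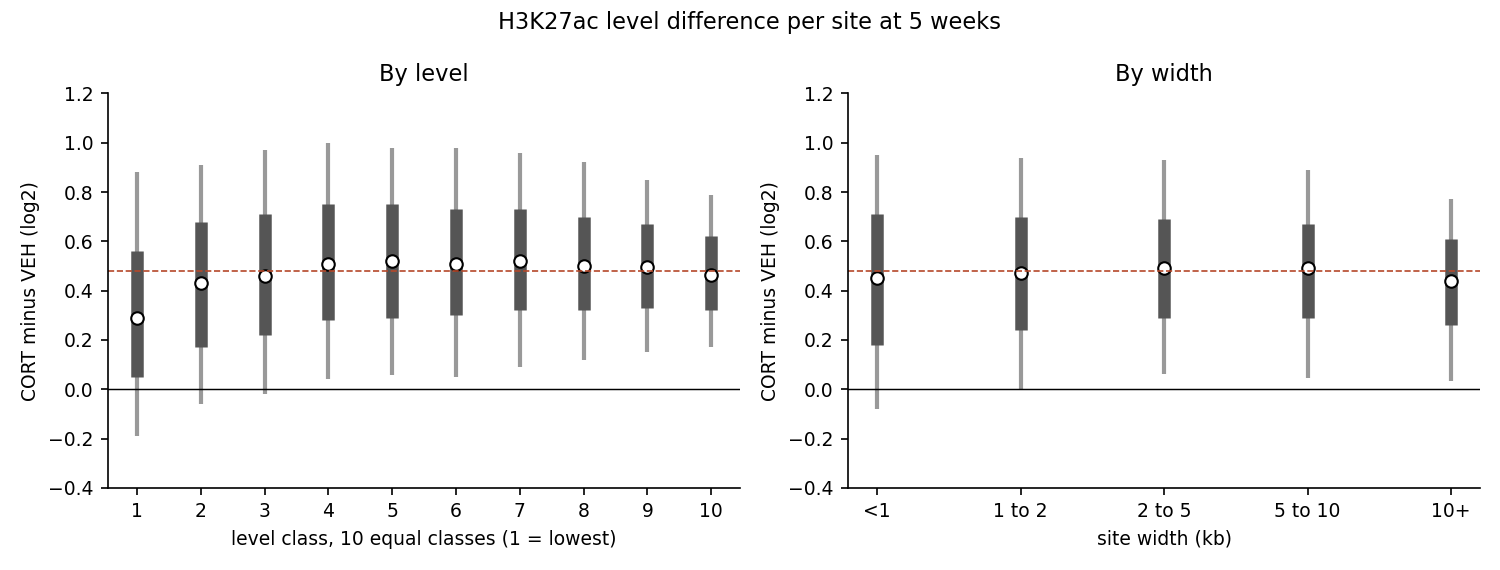
Difference CORT minus VEH (log2) per site, by level class, 10 classes from low to high (left) and width class in kb (right): white points are medians, thick bars the middle 50% of sites, thin bars the 10% to 90% points, and the dashed line the table median of 0.48. Medians stay at 0.43 to 0.52 from class 2 upward, while the lowest class lies at 0.29.

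Peak support differed by direction. Every site of the table had a peak in at least 1 library, and 18060 (45.6%) had one in all 4. CORT replicate 1 had a peak at 81.4% of sites, CORT replicate 2 at 47.0%, VEH replicate 1 at 89.3% and VEH replicate 2 at 82.8%. At the gained sites the shares were 99.99%, 65.9%, 84.8% and 83.2% in the same order. At the lost sites they were 50.9%, 39.6%, 100% and 100%. Gained sites were thus almost all peaks of CORT replicate 1, while CORT replicate 2 had fewer of them than either VEH library. Set against its own share of all sites, however, CORT replicate 2 was higher at the gained sites, at 65.9% against 47.0%. VEH replicate 1 was lower there, at 84.8% against 89.3%, and VEH replicate 2 was nearly the same.

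Of the 6819 gained sites, 4491 had a peak in both CORT libraries, and 2328 had none in CORT replicate 2. The number gained is thus 1.52 times lower when a peak in both CORT libraries is asked for. Peaks and levels come from the same libraries, so a difference between sites grouped by their peaks is in part built into the grouping. Among sites with a peak in CORT replicate 1 only (1604), the median difference was 1.05, and 651 (40.6%) were gained. Only 72 sites had peaks in both CORT libraries and in no VEH library; their median difference was 1.07, and 48 (66.7%) were gained. Where all 4 libraries had a peak, the median difference was 0.51, with 4284 gained (23.7%) and 20 lost.

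The length of the peaks gave the sharpest contrast between the CORT libraries. CORT replicate 1 covered more bases than both VEH libraries at 79.1% of the gained sites. CORT replicate 2 did so at 2.58% and covered fewer bases than both VEH libraries at 71.7%. Over all sites, the median share of a site covered was 89.8% and 0% in CORT replicates 1 and 2, and 91.6% and 87.2% in VEH. At the gained sites it was 100% and 43.9% in CORT, and 79.1% and 76.2% in VEH. The low cover of CORT replicate 2 is thus not particular to the gained sites. Both CORT libraries covered more than both VEH libraries at 169 gained sites (2.48%), against 226 sites (0.571%) of the whole table. A peak list depends on depth and background as well as on the mark, and CORT replicate 2 had fewer peaks and less length covered than the other libraries; its part in the calls was not tested.

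At the lost sites every library lay on the side of its group. The calls come from these same libraries, so this order is in part fixed by the choice of sites. All 53 had a peak in both VEH libraries, and at all 53 each CORT library covered fewer bases than each VEH library. The same order was found at 12400 sites (31.3%) of the whole table. At 25 of the 53 lost sites neither CORT library had a peak, at 20 both did, at 7 only CORT replicate 1 did and at 1 only CORT replicate 2 did. The median share of a lost site under a peak was 13.1% in CORT replicate 1 and 0 in CORT replicate 2, against 95.7% and 99.6% in VEH replicates 1 and 2. The 3315 sites with peaks in both VEH libraries and in neither CORT library had a median difference of 0.04, which is 0.44 below the table median. They held 224 of the 370 sites with a centred fall of 1 or more, and the sites of CORT replicate 1 alone held 150 of the 244 with a centred rise of that size.

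**Figure D3:**
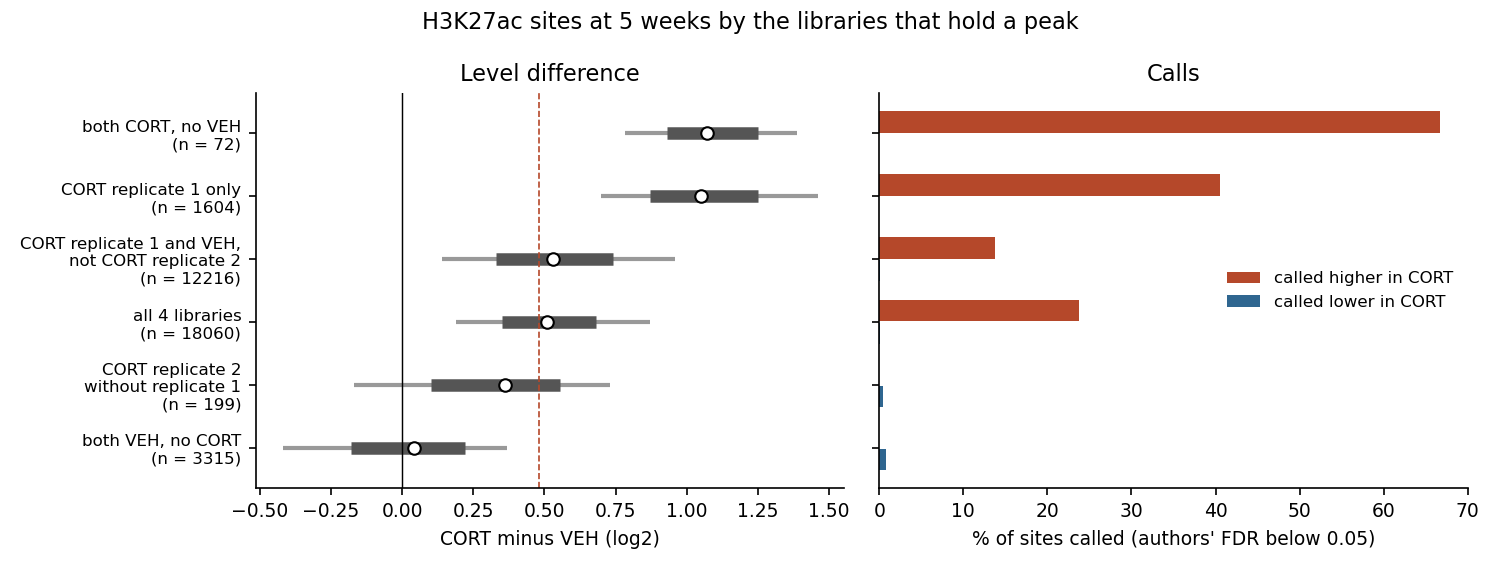
Left, difference CORT minus VEH (log2) by which libraries hold a peak (medians, middle 50% and 10% to 90% points; dashed line, table median); right, share of those sites called higher (red) or lower (blue) in the authors' table (%). Sites of CORT replicate 1 alone have a median of 1.05 and 40.6% gained, and sites of both VEH libraries alone a median of 0.04 and none gained.

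The peak lists and the table also differed in which regions they kept. The union of the 4 lists held 48009 regions, of which 39363 (82.0%) overlapped a table site. Among regions seen in a single library, 21.0% of the 7630 of CORT replicate 1 were in the table, against 65.8% of the 3941 of VEH replicate 1 and 73.9% of the 1683 of VEH replicate 2. Against input, the authors' deposited tables called 49.8% of 41741 CORT regions at an FDR below 0.05 and 92.0% of 41667 VEH regions. All regions called in either input table were among the sites compared here. So the table took up VEH-only regions far more often than regions of CORT replicate 1 alone.

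The sites named here are the 10 gained and the 10 lost sites with the smallest p in the authors' deposited table, with their mouse mm9 positions. The first gained site was chr1:146091690-146096554, with a level of 7.79 in CORT and 5.78 in VEH. Its FDR in the authors' deposited table was 0.000161. CORT replicate 1 had a single peak over all 4865 bases, with a score of 1082, and none of the other 3 libraries had a peak there. The same held for 4 more of the 10: chr13:111732172-111735932 (7.56 against 5.55), chr5:76606811-76609444 (7.25 against 5.27), chr1:39363395-39365286 (6.64 against 4.54) and chr3:95314288-95316655 (6.66 against 4.65). So 5 of the 10 strongest gains were peaks of 1 of the 2 CORT libraries.

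The second gained site, chr4:47220743-47223243, was supported by all 4 libraries. Its level was 7.65 in CORT and 6.13 in VEH, with an FDR of 0.000161 in the authors' deposited table. Peaks covered 98.4% and 87.6% of it in CORT replicates 1 and 2, and 45.8% and 53.1% in VEH replicates 1 and 2. The scores were 791 and 418 in CORT and 94.8 and 77.4 in VEH, so both CORT libraries lay above both VEH libraries in either measure. The site chr13:6040404-6043505 (7.58 against 6.02) was covered to 100% and 57.8% in CORT, 33.9% in VEH replicate 1 and not in VEH replicate 2, again with both CORT libraries on top.

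At the other 3 gained sites with peaks in both groups, CORT replicate 2 was closer to the VEH libraries than to CORT replicate 1 in the share covered. At chr15:27631427-27634050 (7.70 against 6.0) peaks covered 100% and 44.6% in CORT and 41.5% and 62.2% in VEH. At chr11:81817485-81822201 (8.15 against 6.63) they covered 100% and 32.5% in CORT and 29.0% and 30.8% in VEH. At chr5:136902843-136906831 (8.03 against 6.30) they covered 100% and 37.3% in CORT, 35.7% in VEH replicate 1 and none in VEH replicate 2. CORT replicate 2 lay between the VEH libraries at the site on chr15 and slightly above both at the site on chr11. At the site on chr5 it lay slightly above VEH replicate 1, and VEH replicate 2 had no peak.

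The first lost site was chr9:46021554-46026415, with a level of 7.79 in CORT and 8.71 in VEH and an FDR of 0.00448 in the authors' deposited table. Peaks covered 73.6% and 42.0% of it in CORT replicates 1 and 2, and 93.7% and 100% in VEH. The scores were 507 and 186 in CORT against 3100 and 3015 in VEH, with a wide gap between the groups. At chr13:51963182-51969641 (7.90 against 8.70) the scores were 211 and 157 in CORT and 3047 and 2294 in VEH. At chr10:79345239-79357551 (8.80 against 9.52), a site of 12313 bases, single peaks covered 99.9% and 99.8% in VEH, while CORT replicates 1 and 2 had 3 and 2 pieces over 43.6% and 19.4%. At this last site CORT kept shorter peaks in place of a single broad one.

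The broadest of the 10, chr11:54862413-54878148 (9.29 against 9.95), was covered to 38.8% and 21.96% in CORT and to 100% and 93.5% in VEH. At chr11:7714336-7721947 (8.07 against 8.94) CORT replicate 1 kept 34.1% and CORT replicate 2 no peak. Narrower lost sites had no CORT peak at all, such as chr4:122672894-122675308 (6.08 against 7.15), chr7:137061012-137063821 (5.94 against 6.97) and chr14:64731909-64736420 (6.73 against 7.66). The site chr8:124570306-124572308 (5.42 against 6.62) had the largest drop of the 53 lost sites, and it too had no CORT peak. At each of these 4 sites both VEH libraries had a peak. The last of the 10, chr2:27446694-27457717 (8.94 against 9.65), was covered to 47.6% and 35.8% in CORT and to 98.5% and 97.3% in VEH.

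Some called sites lay close together. Loci in which a called site lies within 100 kb of the next of the same sign, whatever sites lie between, were picked after the values were seen. The shared sign of the sites that define a locus is thus part of the choice. Of the 53 lost sites, 18 fell in 8 such loci. In chr9:46021554-46066605 all 4 sites lay below the table median, at −0.93 to −0.45, and 3 were lost; the 13 sites flanking it had a median difference of 0.57. Peaks covered 38.1% and 17.3% of its site bases in CORT and 90.5% and 90.1% in VEH. In chr2:27413364-27457717 all 4 sites lay at −0.90 to −0.26, covered to 40.0% and 21.1% in CORT and 96.2% and 94.5% in VEH. In chr2:132671959-132729426 all 8 sites lay between −0.67 and −0.11, with 2 lost. At these 3 loci the sites that were not called also lay below the table median. In chr8:124508340-124572308, with 2 lost sites, 5 of 6 sites lay below the table median, and the differences ran from −1.20 to 1.05. The site at 1.05, chr8:124542644-124547522, lies between the 2 lost sites and was itself called gained. The flanks differed between the 8 loci, and the one of chr9 had the highest median difference. The flanks were also below 0 at the loci on chr6 (−0.58), chr7 (−0.57), chr14 (−0.44) and chr15 (−0.28).

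Of the 6819 gained sites, 5341 fell in such loci. Gained sites far outnumbered the 53 lost ones, so longer runs can follow from the number of calls alone. Whether gained sites cluster more than lost sites was not tested. There were 58 runs of 5 or more gained sites in a row, and the longest had 9. That run, chr5:3341002-3504875, had differences of 0.92 to 1.67. CORT replicate 1 covered 99.9% of its site bases, CORT replicate 2 3.95%, and the VEH libraries 38.5% and 52.3%. The run of 8 at chr2:22624925-22752087, at 1.01 to 1.54, was covered to 100% and 38.3% in CORT and to 54.1% and 65.0% in VEH. In both runs CORT replicate 2 was the least covered of the 4 libraries, below both VEH libraries.

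**Figure D4:**
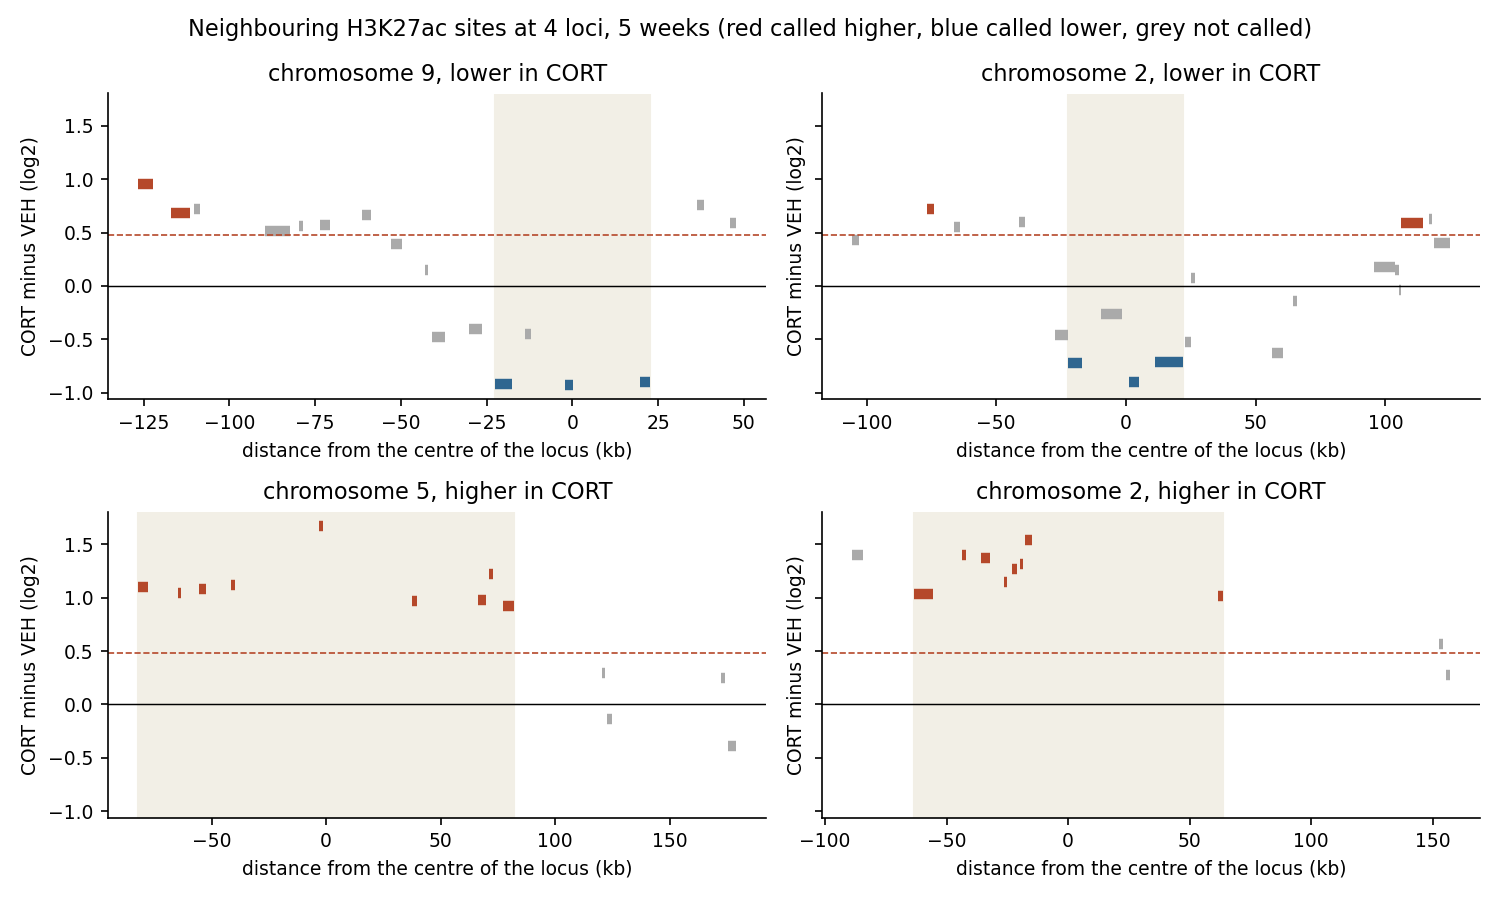
Difference CORT minus VEH (log2) of each H3K27ac site against its distance from the centre of the locus (kb), for 2 lost loci (top) and 2 runs of gained sites (bottom); bar length is site width, colour the call, shading the locus, and the dashed line the table median. Sites inside the lost loci lie at −0.93 to −0.26 and those in the gained runs at 0.92 to 1.67.

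The 5 sites with the highest level were not called, in a level class (the highest of 10) of which 24.5% were gained and 0.278% lost. The highest and widest, chr9:48512449-48607966, spans 95518 bases and had levels of 12.74 in CORT and 12.87 in VEH, with an FDR of 0.533 in the authors' deposited table. Each CORT library had 15 peaks in it, VEH replicate 1 had 1 and VEH replicate 2 had 5. At chr1:74033531-74100532, 67002 bases, the levels were 12.62 and 12.36, and at chr3:96353156-96384684 they were 12.46 and 12.07. The remaining 2 of the 5 highest, at chr15:85490430-85540878 and chr4:144479302-144522456, had differences of 0.19 and 0.56. The 5 widest add chr4:53110724-53154467, with levels of 11.50 and 11.54. None of the 5 highest was called, with FDRs of 0.0704 to 0.533 in the authors' deposited table. Over all 766 sites of 10 kb and more, CORT replicate 2 had 2.91 peaks per site with a peak and a median of 55.7% of the site covered. The other libraries had 1.84 to 2.04 peaks and 94.0% to 96.7% covered, so the peaks called over broad sites were in more pieces in CORT replicate 2. Peak calls depend on depth and background as well as on the mark, and whether the domains themselves differed was not tested.

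Sites with and without H3K4me3, the promoter mark, differed in spread more than in median. The 15416 sites that overlapped an H3K4me3 site of the authors' 5-week table (38.9%) had a median difference of 0.51, and the 24165 others one of 0.45. The 10% point was 0.20 with H3K4me3 and −0.07 without. Sites without H3K4me3 held 204 of the 244 large centred rises and 336 of the 370 large centred falls, more than their 61.1% share of the table. The gap in the falls held within width classes: at 2 to 5 kb, 0.177% of sites with H3K4me3 and 1.49% of those without lay 1 or more below the table median. The shares gained were 22.9% and 23.1% in that class, 31.4% and 26.8% at 5 to 10 kb, 30.8% and 16.7% at 10 kb and over, and 20.2% and 15.3% over all widths. Of the 53 lost sites, 39 had no H3K4me3. The rises were less even. At 2 to 5 kb, 0.152% of sites with H3K4me3 and 0.862% without lay 1 or more above the table median. Under 1 kb the shares were 1.86% and 0.918%, and in the lowest level class 2.32% and 0.832%. Sites without H3K4me3 also had a lower median level, 6.08 against 7.47, and the spread was wider at low levels. By count, the large departures thus lay mostly away from the promoter mark, but not the rises among the narrowest or lowest sites when taken as a share.

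H3K4me3 was low at the lost sites too, relative to its own table. That table has its own shift, with a median difference of 0.61 and 51.9% of its sites called higher, so its values are given centred. All 14 lost H3K27ac sites with H3K4me3 lay below the H3K4me3 median, at −1.67 to −0.30 and a median of −0.73; before centring 9 of the 14 lay below 0. None of them was called in the authors' deposited table for H3K4me3, where 3 sites in all were lower (0.0129%). The 3121 gained sites had a median of 0.09, and 70.6% of them were called higher for H3K4me3, against 71.1% of all H3K27ac sites with H3K4me3. Over the 15416 sites Pearson's r between the differences was 0.45 and Spearman's rho 0.41. This describes sites, which are not replicates and share their libraries. H3K27me3 was found at 864 sites, and there the relation had the opposite sign, with an r of −0.31 and a rho of −0.33. The 134 gained sites among them had a median centred H3K27me3 difference of −0.06, and the 727 sites not called one of 0.18; before centring both were above 0, at 0.50 and 0.74. The authors' deposited table for H3K27me3 called 14.9% of these 134 higher, against 25.3% of all 864 H3K27ac sites with H3K27me3 and 16.7% of its own sites.

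The same sites were then read in the table at 15 weeks, which the labels call recovery, made from other libraries with their own VEH group. Its name shows CORT replicate 2 of that time alone, whose peak list holds 29341 peaks against 1810 for replicate 1. The median difference at 15 weeks was 0.71, and the authors' deposited table called 4377 of its 28322 sites higher (15.5%) and 0 lower (0%). At an unadjusted p below 0.05 in the authors' deposited table (the processing notes name DiffBind and DESeq2), 5 sites were lower. Of the 53 lost sites, 46 overlapped a 15-week site, and all 46 were lower in CORT there too, at −1.74 to −0.09 and a median of −0.585 before centring. Over all sites at 15 weeks, 8.01% lay below 0. After centring their median was −1.295, with a range of −2.45 to −0.80. None passed the threshold there, the smallest FDR in the authors' deposited table being 0.0537.

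Gained sites kept part of their lead at 15 weeks. Of the 6819, 6031 overlapped a 15-week site, with a median difference of 1.03, or 0.32 after centring, and 74.8% lay above the 15-week median. They were called higher there at 36.9%, against 8.70% of the sites not called at 5 weeks. The gained sites supported by CORT replicate 1 alone had the larger values: 457 of 651 overlapped, with a median of 0.83, and 95.8% lay above the 15-week median. For the gained sites with peaks in both CORT libraries the median was 0.18 and the share 66.8%. By the table's name, this rests on 1 CORT library of 15 weeks. Over all 25783 shared sites r was 0.75 and rho 0.68, as a description.

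The VEH libraries at 15 weeks were uneven. VEH replicate 1 of that time had 20644 peaks and VEH replicate 2 had 52108. At the 651 gained sites of CORT replicate 1 alone, CORT replicate 2 of 15 weeks had a peak at 69.6%, VEH replicate 1 at 0.461% and VEH replicate 2 at 68.5%. At the 53 lost sites the shares were 50.9%, 90.6% and 96.2%, against 59.97%, 44.1% and 96.0% of all sites. CORT replicate 1 of 15 weeks had a peak at 5.66% of the lost sites and 4.09% of all sites. VEH replicate 1 thus had peaks at more of the lost sites than of all sites, VEH replicate 2 at the same share, and most gained sites of CORT replicate 1 alone also had a peak in VEH replicate 2.

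**Figure D5:**
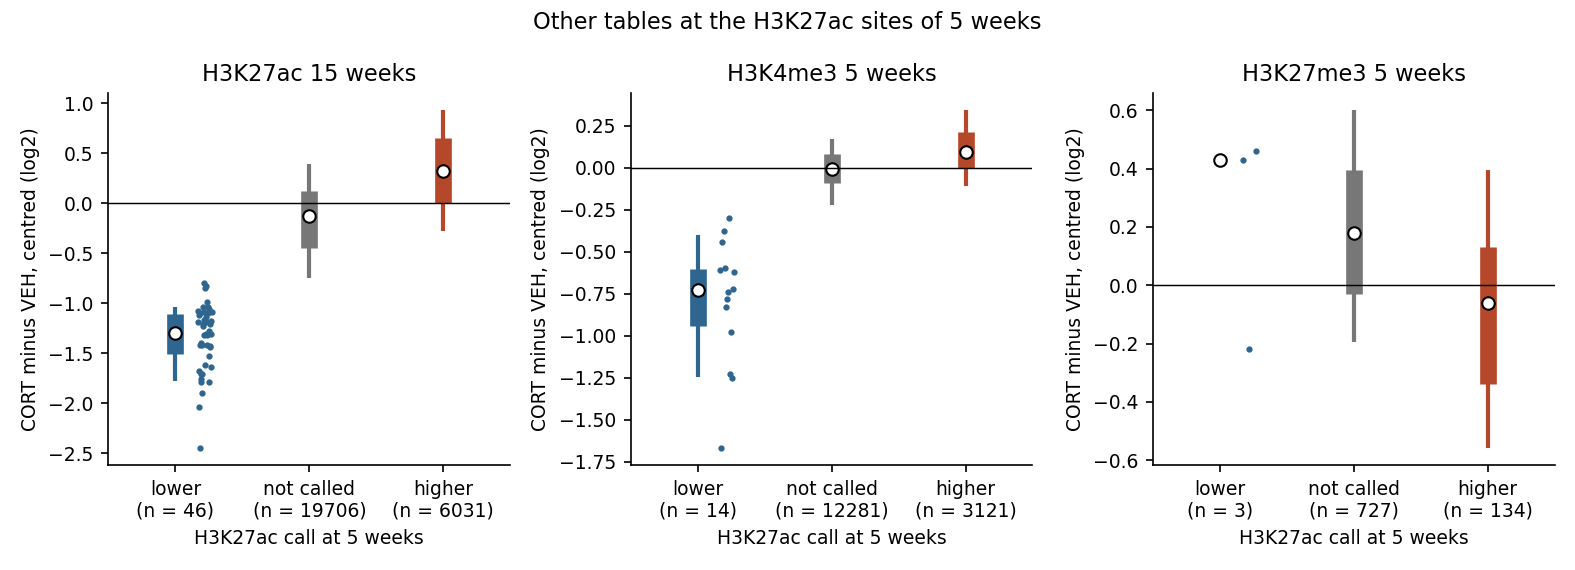
Centred difference CORT minus VEH (log2) in 3 other tables at the H3K27ac sites of 5 weeks, by their call at 5 weeks (white points medians, thick bars the middle 50%, thin bars the 10% to 90% points, both left out under 10 sites; dots are single sites where fewer than 60). All lost sites lie below 0 for H3K27ac at 15 weeks and for H3K4me3 at 5 weeks.

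RNA of histone acetyltransferases, histone deacetylases and BET readers was read from the separate RNA libraries, 5 per group at 5 weeks. The genes were taken as families, and not all of them need act on H3K27. In the authors' deposited table, from DESeq2 per its columns, 13 of 23 such genes were lower in CORT at an adjusted p below 0.05 and 1 was higher, against 20% and 21.8% of the 18034 genes tested. Among the 9 acetyltransferases 6 were lower and none higher. The 3 BET readers were all lower, and of the 11 deacetylases 4 were lower and 1 higher. Crebbp, which encodes CBP, fell from 21.4 ± 3.08 FPKM in VEH to 12.9 ± 2.80 in CORT (mean ± SD, n = 5 each), and the adjusted p in the authors' deposited DESeq2 table was 4.69e-05. Ep300, which encodes p300, fell from 15.03 ± 1.38 to 10.9 ± 2.05 FPKM, and its adjusted p in that authors' deposited table from DESeq2 was 0.00223. Hdac9, a class II deacetylase, rose from 0.647 ± 0.162 to 1.84 ± 0.438 FPKM, with an adjusted p of 3.89e-10 in the authors' deposited DESeq2 table. Most of the listed acetyltransferases and BET readers thus had less RNA in the group with the higher deposited H3K27ac levels. Which of them act on this mark in the tissue was not tested.

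The tissue label was checked against marker RNA in the same libraries. Summed adipocyte markers lay at 21907 to 29466 FPKM in CORT and 15479 to 26527 in VEH, far above all other lists, and none was at 0 throughout. Endothelial markers (3 genes) lay at 39.0 to 63.6 FPKM in CORT and 95.2 to 161.7 in VEH. Fibroblast markers (3 genes) lay at 464.8 to 710.3 in CORT and 873.8 to 2007 in VEH. Macrophage markers (4 genes) lay at 159.6 to 475.7 in CORT and 95.6 to 154.4 in VEH. The libraries of CORT and VEH did not overlap for these 3 other cell types. They did overlap for mesothelial markers, at 45.1 to 88.1 FPKM in CORT and 24.2 to 128.0 in VEH. B and plasma cell markers overlapped too, at 1.22 to 6.15 in CORT and 3.68 to 9.46 in VEH. Over all genes tested, 21.8% were called higher and 20% lower in CORT. The part of these cell types in the H3K27ac differences was not tested.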

How the data were processed

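ChIP-seq of H3K27ac was measured in 2 CORT and 2 VEH libraries at 5 weeks. Per the submitters' processing notes, TopHat, Bowtie, DESeq2 and DiffBind were used with builds mm9 and dm3; their roles and versions are not given in the sources used here. The deposited site tables give the authors' log2 group levels, log2 differences, p-values and FDR per site. The deposited peak lists give a score per peak of at least 50 in each library; read depth is unknown. RNA values are the authors' deposited FPKM, with DESeq2 mean signal per gene, log2 changes and adjusted p-values.

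Per site, CORT minus VEH was computed, raw and centred on the table median. A site had a peak, or another table's site, when they shared at least 1 base; the partner sharing most bases was used. Python 3.11.15, numpy 2.4.6 and pandas 2.3.3 were used, and the overlap code was tested on simulated data. Named sites are the 10 smallest p in each direction, the 5 highest and the 5 widest. The members and lists were chosen with earlier results of these data known. Sites were not tied to genes here and no sequence is shown, since the annotation at hand is of another build (GRCm38), so the planned RNA fit over nearby genes was not run.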

Additional observations from a re-analysis of the deposited data

Results flagged for a closer look

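The values here are marker sums in the 5-week RNA libraries, which are not the H3K27ac libraries. In each, the highest of 5 libraries lay far above the others of its group. By chance about 1 such case is found in 20 groups. Liver markers summed to 2204 FPKM in CORT replicate 2, against 18.5 to 54.0 in the other 4 CORT libraries. Epididymis and testis markers summed to 1431 FPKM in CORT replicate 4, against 0.792 to 330.5 in the others. The median of that group was 5.17, so more than 1 library stood out there. The same markers summed to 650.5 FPKM in VEH replicate 3, against 0.197 to 1.59 in the others. B and plasma cell markers summed to 6.15 FPKM in CORT replicate 4, against 1.22 to 2.22 in the others. Whether such tissue was in the H3K27ac libraries was not tested.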

How the results depend on the processing

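Of 44 alternatives over 18 results, 32 stayed within 1.5 times the count or 0.1 of the median. The 32 include the sign of the calls after centring, which could not change for lost sites and kept the deposited FDRs. At an FDR below 0.01 in the authors' deposited table, 1305 sites were called, 1302 gained and 3 lost. With a difference of at least 1 as well, 2293 were called, 2284 gained and 9 lost. Among sites with a peak in all 4 libraries, 4304 were called, 4284 gained and 20 lost; these counts are lower by construction. Asking for a peak in both libraries of the higher group, chosen after seeing the data, left 4544 calls, 4491 gained and all 53 lost. The median difference over the table reversed from 0.48 to −0.09 when the enrichments over input were compared, at the 30744 sites with a region in both groups. That alternative was also chosen after seeing the data, and the cause was not tested. The median difference was 0.47 to 0.51 under the other alternatives. Leaving out each library in turn, the number of sites with a peak in all remaining libraries ran from 18145 to 26738, against 18060. No paired analysis was possible because the site table holds group means and not values per library. The RNA fits over nearby genes, with their pseudocount, filter, replicate block and left-out libraries, were not run.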
